A study of Rattus norvegicus with 4 samples.

Results

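Somatotrophs are the growth hormone cells of the anterior pituitary. They were taken here as the cells in which *Gh1*, the growth hormone gene, made up at least 5% of all unique molecular identifiers (UMIs, each counting 1 captured transcript), with *Prl* below 2%, *Pomc* below 2% and *Cga* below 1%. The rule selected 2017 of 7861 cells. The cells were dispersed with trypsin and EDTA from anterior pituitaries of Sprague Dawley rats and sequenced from the 3′ ends of their transcripts. One pool of 4 pituitaries came from females in diestrus, 44 days old, and the other pool of 4 from males, 59 days old, and no animal was treated. Each pool was loaded on 2 lanes, called female A, female B, male A and male B here, so lanes are technical replicates and sex cannot be told apart from pool and age. All p-values below therefore measure the spread between lanes and not between animals.

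The lineage is set up by *Pou1f1*, a POU homeodomain factor shared with lactotrophs and thyrotrophs. Hypothalamic growth hormone-releasing hormone acts on the receptor *Ghrhr*, which raises cAMP through the stimulatory G protein alpha subunit *Gnas* and drives both *Gh1* transcription and secretion. Somatostatin acts on the *Sstr* receptors, lowers cAMP and holds secretion back, and ghrelin acts on *Ghsr*. Growth hormone is stored in dense granules and released by calcium-dependent exocytosis.

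The selected cells numbered 465 in female A, 455 in female B, 570 in male A and 527 in male B. They were 24.9%, 24.4%, 27.3% and 25.7% of the cells of these lanes, and 25.7% of all cells (exact binomial 95% interval 24.7% to 26.6%, for counting error only). The median somatotroph held 13862 UMIs and 2988 genes. Median UMIs were 11281 and 12525 in the female lanes and 15694 and 15280 in the male lanes, so the female somatotrophs held fewer UMIs per cell. Lactotrophs of the same lanes went the other way, at 16169 and 19891 in the female and 7614 and 7919 in the male lanes. Of the 2017 cells, 17 carried a barcode sequence also found in another lane, and 1 such sequence marked somatotrophs in 2 lanes.

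*Gh1* was the value that chose the cells and is given as a description. It filled 26.1% of the UMIs of the median cell in female A, 27.0% in female B, 31.6% in male A and 30.6% in male B. The 5th and 95th percentiles over all somatotrophs were 9.37% and 47.9%, and the highest cell reached 77.8%. In UMIs, the median cell held 3766 *Gh1* transcripts and the lowest 184. Both male medians lay above both female medians, while the cells of the 4 lanes overlapped widely. *Gh1* was found in the other cells too, at medians of 0.326% in lactotrophs, 0.277% in Pomc-rich, 0.316% in Cga-rich and 0.278% in hormone-low cells. Red blood cells, which do not make growth hormone, held it at a median of 0.117%.

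The limit of 5% fell in a sparsely filled range. Just inside it, 37 cells had *Gh1* between 5% and 7%, and just outside it 43 cells that met the other limits lay between 3% and 5%. *Ghrhr* was detected in 32.4% of the inner and 30.2% of the outer cells, against 38.7% of those at 7% and over. Of the 2048 cells with *Gh1* at 5% or more, 4 were left out for *Prl*, 23 for *Pomc* and 4 for *Cga*. Only 1 cell had both *Gh1* and *Prl* at 5% or more, and 16 of the 23 cells with *Pomc* were called doublets by a simulation-based caller.

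**Figure D1:**
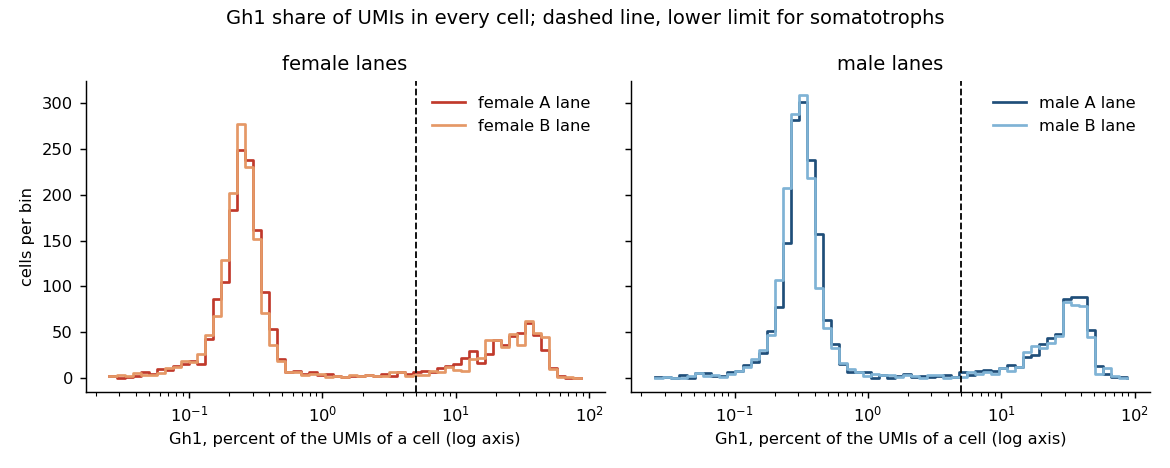
Number of cells (y axis) by *Gh1* as percent of the cell's UMIs (x axis, log scale, 60 bins), with 1 line per lane. Cells of all groups are counted, except the few below the first bin at 0.0251%. Most cells lie in a peak near 0.3%, and the somatotrophs form a second, broader peak to the right of the dashed limit at 5%, with few cells between.

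The label was checked against markers that the rule did not use. Levels are given as CPM, the UMIs of a gene in every 1000000 UMIs of its lane and cell group once 7 hormone and 4 globin genes are set aside. *Ghrhr* was read at 80.4 and 78.7 CPM in the female lanes and 49.2 and 46.3 in the male lanes. It was detected in 38.6% of somatotrophs, in 0% of 491 lactotrophs and in 0.378% of hormone-low cells, which had median depths of 10887 and 6844 UMIs. *Dlk1*, an imprinted transmembrane protein of the Notch ligand family, was read at 8647, 8468, 11226 and 11615 CPM in the order of the lanes above and was detected in 100% of the cells, but a UMI was also found in 65.2% of lactotrophs, 17.7% of hormone-low cells and 9.16% of red blood cells. *Pou1f1* was read at 404, 401, 437 and 469 CPM and detected in 90.2% of somatotrophs, 93.7% of lactotrophs and 5.44% of hormone-low cells. All 3 markers were thus present in each lane, and *Pou1f1* was shared with lactotrophs as its role in the lineage implies.

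Markers of other cell types were then summed over each list. The 6 folliculostellate markers (*S100b*, *Fxyd1*, *Gstm2*, *Capn6*, *Sox2* and *Sox9*) summed to 69.1, 93.9, 170 and 109 CPM in somatotrophs against 2535 in hormone-low cells, with *S100b* the most abundant. The 5 leukocyte markers summed to 13.6, 67.2, 13.1 and 12.1, with female B highest and *Fcer1g* the most abundant, against 1331 in hormone-low cells. The 5 endothelial markers summed to 9.31 over all lanes, and of 5 posterior pituitary markers 3 were at 0. The 3 pericyte markers summed to 70.4, 76.0, 43.2 and 44.7, nearly all of it *Dcn*, against 186 in hormone-low cells. The part of these cell types in the results below was not tested, except where doublet calls were left out. *Prl* made up 0.146% and 0.135% of somatotroph UMIs in the female lanes and 0.0293% and 0.0312% in the male lanes.

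Which genes besides the 4 of the rule set somatotrophs apart from the rest of the gland was asked by summing UMIs per lane in somatotrophs and in 4 other groups cut from the same hormone percentages. These were 491 lactotrophs (*Prl* at 5% or more), 875 Pomc-rich cells, 483 Cga-rich cells and 3435 hormone-low cells, the last of which hold the folliculostellate and other non-endocrine cells. The Cga-rich cells pool gonadotrophs and thyrotrophs, so somatotrophs were not compared with thyrotrophs alone. The thyrotroph hormone gene *Tshb* made up 0.167% and 0.339% of Cga-rich UMIs in the female and 1.92% and 2.79% in the male lanes. Of 12875 genes tested by edgeR's quasi-likelihood test with lane as a block, 106 (0.823%) were higher in somatotrophs than in each other group and 52 (0.404%) were lower, at a Benjamini-Hochberg adjusted p below 0.001 and at least 2-fold in every contrast. DESeq2 called 104 and 80. Leaving out 1 lane left 64 to 75 higher and 22 to 27 lower. The fold and SE given for each gene below are those of the contrast with the smallest fold, and the adjusted p is the largest over the 4 contrasts, which may be another one.

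The gene with the largest such fold was *Pappa2*, a metalloproteinase that cleaves IGF-binding proteins and is listed in the table as *LOC680415*. It was read at 22.3 and 20.7 CPM in the female lanes and 61.2 and 56.4 in the male lanes, and at no more than 2.35 in any lane of hormone-low cells or lactotrophs. The smallest log2 fold change was 5.74 (SE 0.360, adjusted p = 2.94e-07, edgeR). *Arhgap36*, whose product is known to inhibit protein kinase A, was nearly level across lanes at 377, 385, 380 and 395 CPM and was detected in 89.6% of somatotrophs against 4.54% of hormone-low cells. Its smallest log2 fold change was 4.49 (SE 0.284, adjusted p = 8.4e-09).

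*Dlk1* followed with 4.05 (SE 0.618, adjusted p = 3e-04) and *Ghrhr* with 3.89 (SE 0.546, adjusted p = 0.000117). In both the smallest fold was against Cga-rich cells, where *Dlk1* stood at 699 and *Ghrhr* at 4.72 CPM. Without male A the value for *Ghrhr* rose to 5.43. Both missed the limit of 0.001 without other single lanes, *Ghrhr* without female A, female B or male B (edgeR adjusted p of 0.0025, 0.00105 and 0.00102) and *Dlk1* without female B, male A or male B (0.00691, 0.00311 and 0.00704). *Tac1*, the precursor of substance P and neurokinin A, was read at 61.4 and 65.8 in the female and 241 and 182 CPM in the male lanes and changed by 3.88 (SE 0.372, adjusted p = 5.56e-07). Lactotrophs held between 0.624 and 2.54 CPM of *Tac1*. Cga-rich cells, where the fold was smallest, held 1.70 and 2.78 in the female and 10.1 and 29.9 in the male lanes. The lanes of somatotrophs overlapped with neither group. The paper reports both *Tac1* and *Dlk1* in thyrotrophs, which were not separated from the other Cga-rich cells here. Without male B the value for *Tac1* was 4.83. Between male and female somatotrophs *Tac1* differed by 1.62 with an adjusted p of 0.0149 and was not called.

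*Ttc14*, *Htatsf1* and *Ramp1* were close to even across the sexes. *Ttc14*, a protein with tetratricopeptide repeats, was read at 446, 438, 461 and 489 CPM, *Htatsf1*, a factor of transcription and splicing, at 569, 560, 574 and 581, and *Ramp1*, an accessory subunit of the calcitonin gene-related peptide receptor, at 164, 144, 164 and 162. Their smallest log2 fold changes were 3.24 (SE 0.128), 2.95 (SE 0.216) and 3.18 (SE 0.251). *Wfdc1*, a secreted WAP-domain protein, followed with 2.95 (SE 0.225) and *Pgm5*, a phosphoglucomutase-like protein of cell junctions, with 2.45 (SE 0.214). The smallest log2 fold change was 3.47 for *LOC102547753*, 3.30 for *Colec11*, a secreted collectin, 2.73 for *Dcdc5*, a doublecortin-domain gene, and 2.69 for *Cabp2*, a calcium-binding protein. *Cabp2* missed the limit of 0.001 without male A or male B (adjusted p of 0.00158 and 0.00153), and without female A its value was 3.68.

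*Cdkn2a*, an inhibitor of the cell cycle kinases that act with D cyclins, was read at 66.3, 65.3, 49.7 and 63.7 CPM in somatotrophs, and in lactotrophs at 2.53 and 4.99 in the female and 17.8 and 12.01 in the male lanes. The smallest log2 fold change was 2.85 (SE 0.329, adjusted p = 2.77e-06). *Cdkn2b*, its neighbour and relative, was also higher, at 2.14. These were the only calls among 13 listed cell cycle inhibitors and D cyclins, of which 12 were tested. Of all genes, 0.823% were higher and 0.404% lower.

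**Figure D2:**
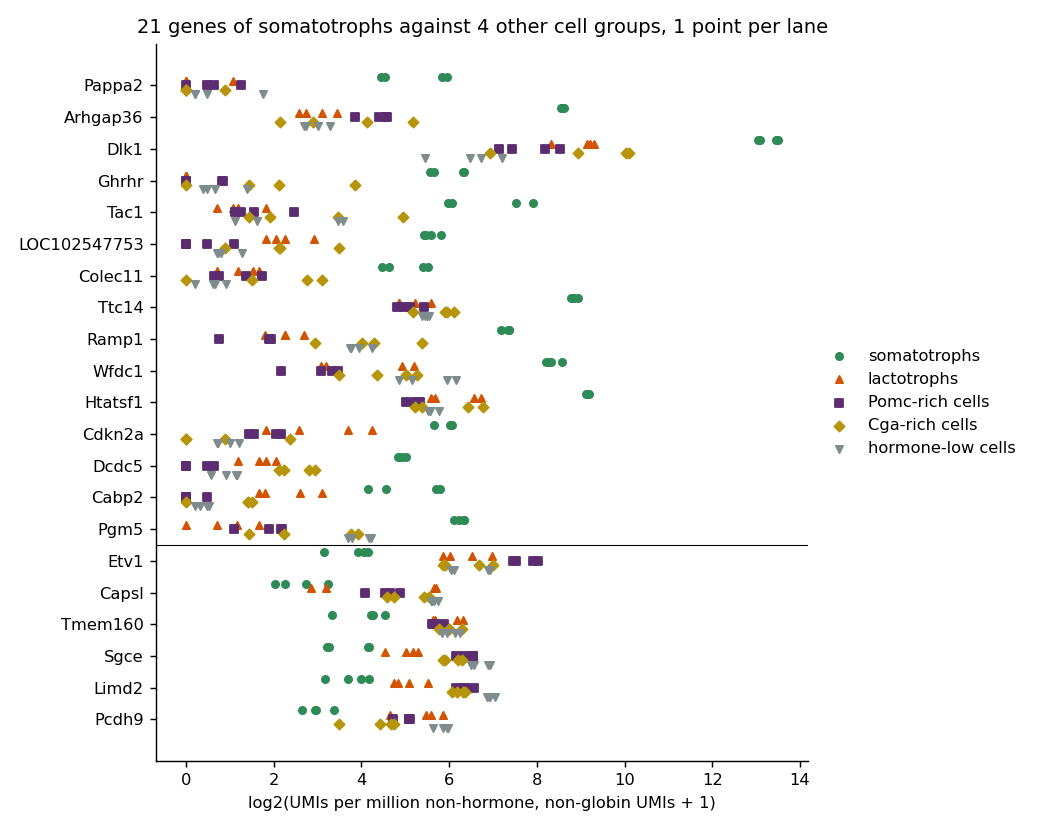
Levels of the 15 genes higher (above the line) and the 6 lower (below it) in somatotrophs than in each of the 4 other groups, as log2 of CPM plus 1, with 1 point per lane and symbols for the groups. Somatotroph points lie to the right of every other point for the upper 15 genes. For *Capsl* the somatotroph and lactotroph points overlap.

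The genes lower in somatotrophs than in each other group were led by *Etv1*, an ETS transcription factor, at 16.6, 15.7, 14.2 and 7.83 CPM against 56.8 or more in every lane of lactotrophs, with a smallest log2 fold change of -2.44 (SE 0.263, adjusted p = 1.77e-06). *Capsl*, *Tmem160*, *Sgce*, *Limd2* and *Pcdh9* followed with -1.91, -1.44, -1.42, -1.38 and -1.37. For *Capsl* the lanes of somatotrophs (3.07 to 8.48 CPM) overlapped with the female lanes of lactotrophs (8.21 and 6.24). *Sgce*, an imprinted sarcoglycan gene, was read at 17.2, 16.7, 8.33 and 8.55. *Capsl*, *Sgce* and *Pcdh9* lost their calls without at least 2 of the single lanes.

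Among 17 listed receptors for releasing factors and peptides, 11 were tested and 3 were higher in somatotrophs than in each other group, while none was lower, beside 0.823% and 0.404% of all genes. Besides *Ghrhr* these were the somatostatin receptors *Sstr2* and *Sstr5*. *Sstr2* was read at 22.0 and 21.7 CPM in the female and 32.4 and 32.8 in the male lanes, with a smallest log2 fold change of 1.59 against Cga-rich cells, which held 10.5 CPM. *Sstr5* was read at 7.17, 5.96, 16.7 and 16.6 and was higher than in lactotrophs by 4.45 (SE 0.719, adjusted p = 0.000395), the smallest of its 4 contrasts. *Sstr3*, at 7.87 to 11.01 CPM, was not called. *Ghsr* was sparse, at 7.94 and 10.2 in the female and 5.09 and 4.27 CPM in the male lanes, with a UMI in 6.05% of somatotrophs and none in lactotrophs, and did not pass the filter on low counts in the fit across groups. The dopamine, thyrotropin-releasing hormone and corticotropin-releasing hormone receptors *Drd2*, *Trhr* and *Crhr1* stood at or below 1.19 CPM in each somatotroph lane.

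In the cAMP pathway, 37 genes were listed and 32 tested, of which 1 was higher than in each other group and none lower. Beside 0.823% higher and 0.404% lower over all genes, this count does not set the list apart. The one called was *Pde10a*, a phosphodiesterase that breaks down cyclic nucleotides, at 38.7, 36.0, 36.1 and 33.8 CPM and a smallest log2 fold change of 1.99 (adjusted p = 0.000604). *Gnas* itself stood at 6799, 6473, 8241 and 8724 CPM in somatotrophs and between 11469 and 12821 in lactotrophs, a difference of -0.80 on the log2 scale (SE 0.108, adjusted p = 1.36e-05) that stayed under 2-fold. The summed level of the list was 9536 CPM in somatotrophs, 13736 in lactotrophs and 4995 in hormone-low cells.

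None of 22 genes of granules and prohormone processing (18 tested), of 24 exocytosis genes (24 tested), of 25 endoplasmic reticulum folding genes (25 tested) or of 23 genes of signal peptide cleavage and translocation (22 tested) was called in either direction against each other group. With 0.823% and 0.404% of all genes called, lists of this size would hold few calls or none, so these counts do not set the lists apart from other genes. The granule list summed to 17569 CPM in somatotrophs, 20106 in lactotrophs, 18273 in Pomc-rich, 30519 in Cga-rich and 1763 in hormone-low cells. The folding list differed less, at 5597 in somatotrophs and 4388 in hormone-low cells. *Resp18*, a granule protein of neuroendocrine cells, was the most abundant of the list in somatotrophs, at 8282, 8411, 10483 and 11027 CPM. Of 32 ion channel genes, 28 were tested and *Cacna1g*, the pore subunit of a T-type calcium channel, was the one called higher (2.05, adjusted p = 0.000905).

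Of 19 imprinted genes, which are read from 1 parental copy, 14 were tested, and 3 were higher than in each other group and 1 lower, beside 0.823% and 0.404% of all genes. The higher ones were *Dlk1*, *Meg3* (listed as *RGD1566401*), a noncoding RNA made next to *Dlk1*, and *Grb10*, an adaptor that dampens growth factor receptors. *Meg3* was read at 12675, 13249, 11887 and 11337 CPM against 4753 in lactotrophs and 517 in hormone-low cells, a smallest log2 fold change of 1.46 (adjusted p = 0.000122). *Grb10* stood at 29.7, 27.2, 54.5 and 51.8 CPM, higher by at least 1.23. *Peg10* was lower, by -2.37, and was close to 0 in somatotrophs with a UMI in 0.297% of cells. The imprinted *Sgce*, named above as lower, was not on this list and is not in its counts. The list summed to 31038 CPM in somatotrophs and 18496 in lactotrophs, and most of it was *Dlk1* and *Meg3*.

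Of 25 lineage transcription factors, 23 were tested, none was higher and 2 were lower than in each other group, among them *Lhx3*. Over all genes 0.823% were higher and 0.404% lower. *Lhx3*, a LIM homeodomain factor of early pituitary development, was read at 6.66, 10.0, 7.40 and 4.63 CPM against 94.5 in lactotrophs and 67.5 in hormone-low cells, a smallest log2 fold change of -1.24. Of 15 genes that the study itself found dominant in somatotrophs, 13 were called here, all higher, beside 0.823% of all genes. They were chosen from these same cells and are no independent evidence. The other 2, *Rbp4* and *Srxn1*, were read at 2.32 and 1.74 with adjusted p of 0.0211 and 0.00544. Of 16 genes of amino acid uptake and synthesis, 13 were tested and 1 was called, beside the same shares of all genes. It was *Slc7a5*, a transporter of large neutral amino acids, higher at 26.6, 23.6, 62.5 and 70.5 CPM.

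Lactotrophs share the *Pou1f1* lineage, and against them 378 genes (2.94%) were higher in somatotrophs and 474 (3.68%) lower. Leaving out 1 lane left 218 to 264 higher and 295 to 357 lower. No *Ghrhr* UMI was found in lactotrophs, which places the somatotroph level at least 98.7-fold above 3 counts over that group. The call was lost without female A, at an edgeR adjusted p of 0.00126. The fitted log2 fold change stayed similar, at 10.7 without that lane and 10.8 with all lanes. *Tac1* was higher by 6.49 (SE 0.543), *Pgm5* by 6.03 (SE 0.453) and *Arhgap36* by 5.73 (SE 0.352). *Sytl4*, the granule-docking protein granuphilin, was read at 197, 193, 253 and 266 CPM in somatotrophs and at 3.16, 1.87, 11.4 and 12.01 in lactotrophs, a difference of 5.13 (SE 0.277, adjusted p = 2.77e-10). Its level in Pomc-rich cells was 414, so it did not set somatotrophs apart from all groups. *Ramp1* differed by 5.31, *LOC689679* by 5.76 and *Ffar4*, a receptor for long-chain fatty acids, by 4.91, and none of their lanes overlapped. Without female A, *LOC689679* stood at 6.42, with a similar value without female B, and *Ffar4* stood at 5.61 without female B.

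The 8 named genes lower than in lactotrophs, those with the largest folds in that direction, were close to absent from somatotrophs. *Irx6*, an Iroquois homeobox gene, stood at 0.512, 0, 0.308 and 0 CPM against 87.1 to 116 in the lactotroph lanes, a log2 fold change of -8.87 (SE 0.413). *Agtr1b*, an angiotensin receptor, differed by -8.14, the keratin *Krt25* by -8.07, the receptor tyrosine kinase *Alk* by -8.15, the annexin *Anxa10* by -8.34 and *Rprm*, known as a brake on the cell cycle, by -7.32. *Sostdc1*, a secreted antagonist of BMP and Wnt signals, differed by -8.71. *Cartpt*, the CART peptide precursor, differed by -8.62 and was uneven in lactotrophs, at 429 and 65.5 CPM in the female and 4555 and 3577 in the male lanes. The call for *Cartpt* was lost without female A, male A or male B (adjusted p of 0.0072, 0.00606 and 0.00285), and that for *Sostdc1* without female A or male A (0.00121 and 0.00322). Without female A, *Anxa10* stood at -8.95 and *Krt25* at -8.74.

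In the granule list, 18 genes were tested, and *Chgb*, *Scg2*, *Scg3* and *Rab27b* were lower than in lactotrophs and *Sytl4* higher, where 3.68% of all genes were lower and 2.94% higher. *Chgb*, a granin, was read at 996, 999, 1320 and 1318 CPM in somatotrophs and between 5130 and 5778 in lactotrophs, a difference of -2.35. In the exocytosis list, 3 of 24 tested were higher, beside the same 2.94%, and none lower: *Syt1*, *Syt5* and *Nsf*, of which *Syt1*, a calcium sensor of vesicle fusion, stood at 49.4, 48.4, 71.3 and 68.2 CPM against 22.3. Of 19 hormone feedback receptors, 17 were tested, 5 were higher and none lower, beside 2.94% and 3.68% of all genes. They were the growth hormone receptor *Ghr*, the glucocorticoid and mineralocorticoid receptors *Nr3c1* and *Nr3c2*, *Rxrg* and *Prlr*. *Nr3c1* was read at 31.7, 36.5, 51.1 and 45.2 CPM in somatotrophs and at 1.64 in lactotrophs, a difference of 4.47 (adjusted p = 7.61e-09). Of 10 listed genes of growth hormone response, 8 were tested, 3 were higher and 1 lower, beside the same shares. Besides *Ghr*, *Cish* and *Socs2*, which dampen growth hormone signalling, were higher by 2.59 and 1.70. *Igf1*, a growth factor that growth hormone induces in many tissues, was lower by -3.01. None of the 8 was called against each other group, beside 0.823% higher and 0.404% lower over all genes. *Cish* stood at -0.93 against Pomc-rich cells and *Socs2* at -1.37 against hormone-low cells, the lowest of their 4 contrasts.

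Whether somatotrophs differed between the sexes was tested on their sums in 2 female and 2 male lanes. Of 12246 genes, 152 (1.24%) were higher in the male lanes and 162 (1.32%) in the female lanes. With library size in place of TMM factors, 208 were higher in the male and 133 in the female lanes, and the median over all genes moved from 0.0035 to 0.122 on the log2 scale. DESeq2 called 81 and 102. With each cell thinned to 2000 UMIs, 92 and 64 were called. Sex, age and pool cannot be told apart in these differences.

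Genes of the sex chromosomes were read first, as a check of the labels. Over all cells the Y-linked *Kdm5d* had 0 UMIs in both female lanes and 264 and 228 in the male lanes, whereas *Ddx3y*, also Y-linked, had 10, 8, 14 and 11 UMIs in the order of the lanes and did not separate the sexes. *Eif2s3y*, a translation factor gene on the Y chromosome, had no UMI in female somatotrophs and stood at 109 and 119 CPM in the male lanes, at least 307-fold above 3 counts over the female lanes. *Ddx3*, a helicase symbol that a later annotation ties to the Y chromosome and to a copy elsewhere, had 0 in both female lanes and 45.3 and 43.3 in the male lanes. *LOC100911498*, which carries the gene identifier of *Xist*, the RNA of X inactivation, was read at 134 and 143 in the female lanes and 0.617 and 0 in the male lanes.

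Outside these, the largest difference was in *S100g*, a vitamin D-dependent calcium-binding protein. It was read at 245 and 227 CPM in the female lanes and 0.309 and 0.534 in the male lanes, a log2 ratio of male to female of -9.19 (SE 0.154, adjusted p = 2.32e-21). Lactotrophs showed the same order at higher levels, 1597 and 1650 against 6.35 and 19.7, and hormone-low cells held 27.2 and 20.3 in the female lanes. *S100g* was not spread evenly over female somatotrophs: 26.4% of 920 cells had a UMI and 14.6% had at least 3, and the latter held 92.3% of its UMIs in female A and 93.5% in female B. In Pomc-rich cells of the female lanes, of similar median depth (11577 against 11768 UMIs), 6.23% had a UMI and none of 353 had 3. Cells with at least 3 were also found among female Cga-rich cells (16 of 222) and female lactotrophs (152 of 251). Among hormone-low cells there were 15 of 1684 in the female and 13 of 1751 in the male lanes. The 134 female cells with at least 3 UMIs had a median *Gh1* of 17.6% in female A and 20.6% in female B, against 27.1% and 27.9% in the remaining cells.

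*LOC287167*, which carries the gene identifier of the alpha-globin gene *Hba-a3* and was not among the 4 globin genes set aside, was also higher in females, at 131 and 133 against 7.87 and 4.99 CPM (-4.45, SE 0.125). The 4 other globin genes went the other way, at 0.0149% and 0.0165% of somatotroph UMIs in the female and 0.0343% and 0.0936% in the male lanes. They were highest in male B, and their sum in the lower tercile of somatotrophs by *Gh1* fell from 954 to 170 CPM without quality outliers and doublet calls. Red blood cells held *LOC287167* at 0.727% of their UMIs. At least 3 UMIs of *LOC287167* were found in 114 female somatotrophs, and 64 cells were shared with the 134 for *S100g*, which is 56.1% of the former and 47.8% of the latter. At least 3 UMIs of *LOC287167* were also found in 52 of 222 female Cga-rich cells and 16 of 251 female lactotrophs, the former a larger share than in somatotrophs (23.4% against 12.4%). *Cited4*, a transcriptional coactivator of the CITED family, was read at 70.9 and 57.9 against 4.78 and 5.16 (-3.81, SE 0.156). The other 6 of the 10 named genes, *LOC360998*, *LOC690490*, *LOC103690237*, *LOC102556662*, *Slfn2* of the schlafen family and *Hmcn2*, an extracellular hemicentin, had log2 ratios of male to female from -5.16 to -3.62. *LOC690490* stood at -4.08, and at -4.68 without male A.

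**Figure D3:**
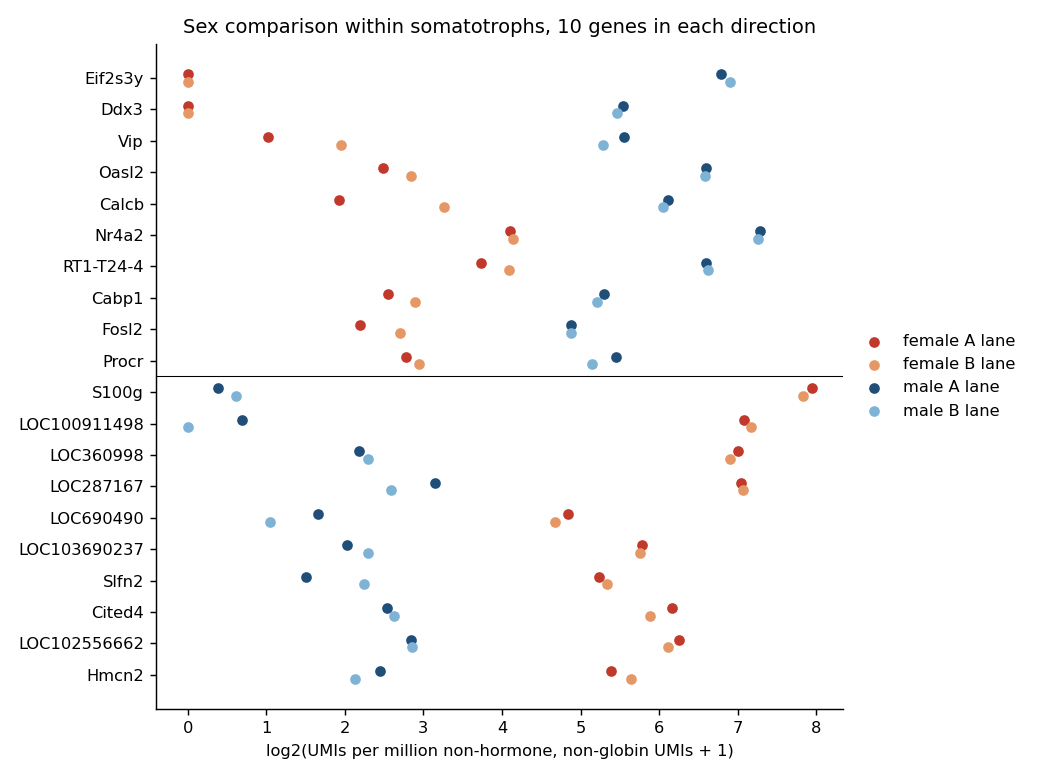
Levels in somatotrophs of the 10 genes higher in the male (above the line) and the 10 higher in the female lanes (below it), as log2 of CPM plus 1, with 1 point per lane. The 2 lanes of a sex lie next to each other for each gene and apart from those of the other sex.

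Genes higher in the male lanes included peptides. *Vip*, vasoactive intestinal peptide, was read at 1.02 and 2.86 CPM in the female lanes and 45.8 and 37.9 in the male lanes (4.28, SE 0.247, adjusted p = 3.2e-11), and *Calcb*, a calcitonin gene-related peptide gene, at 2.82 and 8.58 against 68.2 and 65.3 (3.40, SE 0.249). *Calcb* may share reads with its close relative *Calca*, so the split between them is uncertain, and its call was lost with *Gh1* at 10% or more. Without female B they stood at 5.22 and 4.45. Both were carried by few cells. At least 3 UMIs of *Vip* were found in 26 of 570 cells in male A and 7 of 527 in male B, and of *Calcb* in 26 and 19, while of 3435 hormone-low cells 2 and 1 had as many. Of the 33 male *Vip* cells, 7 were among the 45 *Calcb* cells and 13 among the 180 *Tac1* cells. *Vip* cells had a median *Gh1* of 21.5% in male A and 23.6% in male B against 31.9% and 30.6% in the rest.

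*Nr4a2*, an orphan nuclear receptor that is an immediate early gene, was read at 16.1 and 16.7 CPM in the female and 155 and 152 in the male lanes (3.11, SE 0.0935), and *Fosl2*, of the same class of genes, at 3.58 and 5.48 against 28.5 and 28.3. Of 25 listed immediate early and dissociation response genes, 23 were tested, 4 were higher in the male lanes (1.24% of all genes were) and none in the female; the others were *Egr2* and *Dusp1*. The list's median was 0.57 on the log2 scale beside 0.0035 over all genes, and it summed to 5375 and 6049 CPM in the female and 8608 and 8469 in the male lanes. In hormone-low cells the list summed to 33853 CPM, and the folliculostellate markers in somatotrophs were also higher in the male lanes (170 and 109 against 69.1 and 93.9 CPM). Enzymatic dispersion is known to induce such genes, and neither its part nor that of other cell types in these values was tested. *Oasl2*, an interferon-induced gene, stood at 4.61 and 6.20 against 95.3 and 95.3 (4.01, SE 0.139). *RT1-T24-4*, of the class I histocompatibility family whose members can share reads, *Cabp1*, a calcium-binding protein, and *Procr*, the protein C receptor, were higher in the male lanes by 2.65, 2.59 and 2.50.

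Of the 17 listed receptors for releasing factors and peptides, 7 were tested, 1 was higher in the male lanes and none in the female. Over all genes these shares were 1.24% and 1.32%. The one called was *Sstr5*, higher in the male lanes by 1.22 (SE 0.207, edgeR adjusted p = 0.000118). *Ghrhr* was read higher in the female lanes, by a log2 fold change of male over female of -0.85 (SE 0.0859, adjusted p = 9.44e-08), which is under the 2-fold limit, and a *Ghrhr* UMI was found in 39.4%, 41.1%, 39.1% and 35.1% of cells. In the cAMP list 2 of 30 tested were higher in the male lanes, where 1.24% of all genes were, and none in the female: *Rgs2*, a regulator of G protein signalling, at 103 and 132 against 479 and 472 CPM, and *Pkib*, an inhibitor of protein kinase A, at 6.91 and 7.63 against 47.5 and 39.4. Of the 15 genes dominant in somatotrophs by the study, 5 were higher in the male lanes, beside 1.24% of all genes, and none in the female, beside 1.32%. They were *Pappa2*, *Cabp2*, *Rbp4*, *Slc7a5* and *Srxn1*. The median of the 15 was 0.038 on the log2 scale beside 0.0035 over all genes, so the list as a whole was not shifted. *Rbp4*, the retinol carrier of blood, was read at 381 and 383 against 1071 and 979. Of 32 ion channel genes, 26 were tested, 2 were higher in the female and 1 in the male lanes, beside the same shares of all genes. *Kcnk1*, a two-pore potassium channel, and the T-type channel *Cacna1g* were higher in the female lanes, by -2.02 and -1.68, and *Kcnk3* in the male lanes by 1.20. Of 19 hormone feedback receptors, 17 were tested, beside the same shares. The progesterone receptor *Pgr* was higher in the female lanes, by -2.11, and *Rxrg* in the male lanes.

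Of 20 listed cell cycle genes, 19 were tested, 7 were higher in the female lanes (1.32% of all genes were) and none in the male, with a list median of -1.33 beside 0.0035 over all genes. They were *Cdk1*, *Ccnb1*, *Birc5*, *Pbk*, *Tpx2*, *Cdc20* and *Spc25*. Cells with UMIs of at least 5 of the 20 genes numbered 15 (3.23%) in female A, 12 (2.64%) in female B, 10 (1.75%) in male A and 10 (1.90%) in male B, with exact 95% intervals that overlapped (1.82% to 5.26% in female A and 0.914% to 3.46% in male B). In cells thinned to 2000 UMIs, 12, 10, 8 and 7 cells had at least 3 of the genes. None of these 47 cells was called a doublet. Their median *Gh1* was 15.2% against 26.2% in the remaining somatotrophs of female A, 18.0% against 27.4% in female B, 26.3% against 31.6% in male A and 30.1% against 30.6% in male B, so the gap was wide in the female lanes and nearly absent in male B.

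Variation inside the type was followed along *Gh1* itself. In each lane the lowest and the highest tercile of cells by *Gh1* percent (3 equal parts) were summed, with 671 cells in each over all lanes and median *Gh1* of 15.9% and 41.4%. The terciles are a range of 1 measure and not types. That measure is the one that chose the cells, and a droplet that also holds another cell has a lower *Gh1* percent by construction, so the calls below describe what goes with *Gh1* percent and are no test of separate states. Of 9255 genes tested with lane as a block, 41 (0.443%) were higher in the lower tercile and 1 (0.0108%) in the upper tercile. The lower tercile held 39 doublet calls and the upper tercile 1, and the folliculostellate markers summed to 208 CPM in the lower and 37.8 in the upper tercile, with *S100b* the most abundant. Of the 41 genes, 30 stood more than 5 times higher in hormone-low cells than in somatotrophs. Without the doublet calls 10 genes were higher in the lower tercile, 8 of them among the 41, an alternative chosen after these values were seen. Of the 41, 29 passed the filter on low counts in that fit, and all 29 were still read higher in the lower tercile. They had been chosen for that direction in mostly the same cells, so this is no test of it. The rest of the 41 had no value in that fit. With depth and mitochondrial outliers left out as well, 15 were called, and the folliculostellate sum of the lower tercile fell to 49.5 CPM.

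*Ttc14* was the one gene higher in the upper tercile, at 223, 295, 326 and 327 CPM in the lower and 624, 623, 646 and 634 in the upper terciles of the 4 lanes, with no overlap (1.06, SE 0.0746, adjusted p = 3.41e-08). It was read at 1.07 without doublet calls and fell under the 2-fold limit without female A (0.97), with *Gh1* at 10% or more (0.94) or with cells thinned to 2000 UMIs (0.91), median UMIs being 11217 in the lower and 15948 in the upper tercile. *Ghrhr* stood at 50.5 and 73.2 CPM in the lower and upper tercile, *Pou1f1* at 400 and 472 and *Dlk1* at 8665 and 11691, and none of these was called, at edgeR adjusted p of 0.0296, 0.0875 and 0.128. None of the genes of granules (17 tested), exocytosis (21), endoplasmic reticulum folding (24) or translocation (22) was called in either direction. At 0.443% of all genes called higher in the lower and 0.0108% in the upper tercile, these counts do not set the lists apart.

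The genes higher in the lower tercile with and without doublet calls included *Pttg1*, *Knstrn*, *S100g*, *LOC287167*, *Nnat*, *Ngb* and *H1fx*. *Pttg1*, securin of mitosis, was read at 99.2, 91.9, 23.6 and 30.9 in the lower and between 4.30 and 11.2 CPM in the upper terciles (-3.00, SE 0.231, adjusted p = 2.36e-07), and at -3.07 without doublet calls. At least 3 UMIs of *Pttg1* were found in 47 somatotrophs (2.33%), which held 92.6% of its UMIs. *S100g* differed by -2.35 (SE 0.143) in an all but female signal, at 434 and 415 in the lower and 89.0 and 82.5 in the upper terciles of the female lanes. *Nnat*, an imprinted proteolipid of neuroendocrine cells, was read at 105, 133, 178 and 154 against 30.5, 38.3, 33.4 and 45.3 (-2.01, and -1.59 without doublet calls). Several of these calls depended on the setting: with *Gh1* at 10% or more *Pttg1* stood at -3.35 with an edgeR adjusted p of 0.164, and with DESeq2 *S100g* stood at -2.10 with an adjusted p of 0.0313. *LOC287167* missed the limit without male B (0.00113) and *H1fx* without female A (0.0013). *H1fx*, a linker histone, differed by -1.36 and was highest in female A, at 116 against 28.3 to 40.9 in the other lower terciles, and *LOC287167* by -1.97.

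The other named genes lost their calls without doublet calls. *Ptn*, a secreted growth factor, went from -2.51 to -1.35, *Klf6*, a zinc finger factor, from -1.68 to -0.52, *Aldoc*, an aldolase, from -1.62 to -0.47, *S100a1* from -1.46 to -0.86 and *Plekhb1* from -1.18 to -0.77. Each stood between 247 and 1591 CPM in the lanes of hormone-low cells. *Fxyd1*, a folliculostellate marker, went from -2.49 with an adjusted p of 0.00015 to an adjusted p of 0.128 without doublet calls.

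**Figure D4:**
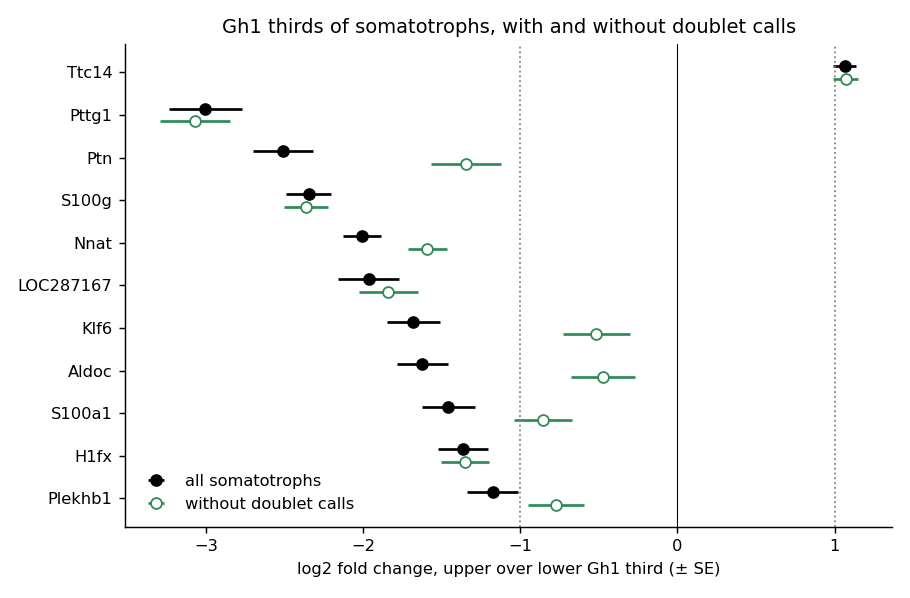
Log2 fold change of the upper over the lower *Gh1* tercile (x axis, point ± SE) for the 11 named genes (y axis), with all somatotrophs (filled) and without doublet calls (open). Dotted lines mark 2-fold. *Pttg1*, *S100g*, *LOC287167*, *H1fx* and *Ttc14* hold their place, while *Ptn*, *Klf6*, *Aldoc* and *S100a1* move toward 0.

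The spread of each gene over single somatotrophs was described by the ratio of variance to mean of its UMIs, which is 1 for pure counting error, in 1997 cells thinned to 2000 non-hormone UMIs. Of 2733 genes with a mean of at least 0.1 UMI, the median of the lowest ratio over the 4 lanes was 0.969, and 31 genes had a ratio of at least 2 in every lane. The 15 highest are a description with no test. Ordered by the lowest ratio over lanes, *Fos*, an immediate early gene, came first with ratios of 8.06, 10.1, 6.34 and 6.53 in the order of the lanes, and *Junb*, *Btg2* and the heat shock gene *Hspa1b* were among them. A UMI of *Fos* was seen in 62.6% of the thinned cells, while 5% held 15 or more. *Meg3* followed with ratios of 10.6, 9.10, 6.43 and 6.10, above *Fos* in female A and male A, and its neighbour *Dlk1* with 4.66, 4.72, 7.56 and 7.39. The levels were 12972 CPM in female and 11632 in male somatotrophs for *Meg3* and 8554 and 11406 for *Dlk1*. The ratio of a gene that varies beyond counting error can grow with its level, and the part of level in these ratios was not tested.

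*Tac1* differed from the rest of the 15 in being seen in few cells. A UMI was found in 9.81% of thinned cells, at a mean of 0.260 and a maximum of 24, with ratios of 6.17, 7.26, 6.55 and 4.80. Before thinning, at least 3 UMIs were found in 18 of 465 cells in female A, 10 of 455 in female B, 92 of 570 in male A and 88 of 527 in male B, and these 208 cells held 90.5% of all somatotroph *Tac1* UMIs. A *Ghrhr* UMI was found in 38.9% of them and in 38.5% of the others, and their median depth was 18174 against 13415 UMIs. In lactotrophs and Pomc-rich cells no cell had 3 UMIs of *Tac1*, while 6 of 261 male Cga-rich cells and 21 male hormone-low cells had. The other members were the mitochondrial *Mt-atp6*, *Mt-co3*, *Mt-nd1*, *Mt-nd2*, *Mt-cyb* and *Mt-co2*, the granule gene *Resp18* and *Gnas*, each detected in over 99% of thinned cells, with lowest ratios of 3.14 to 5.64.

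**Figure D5:**
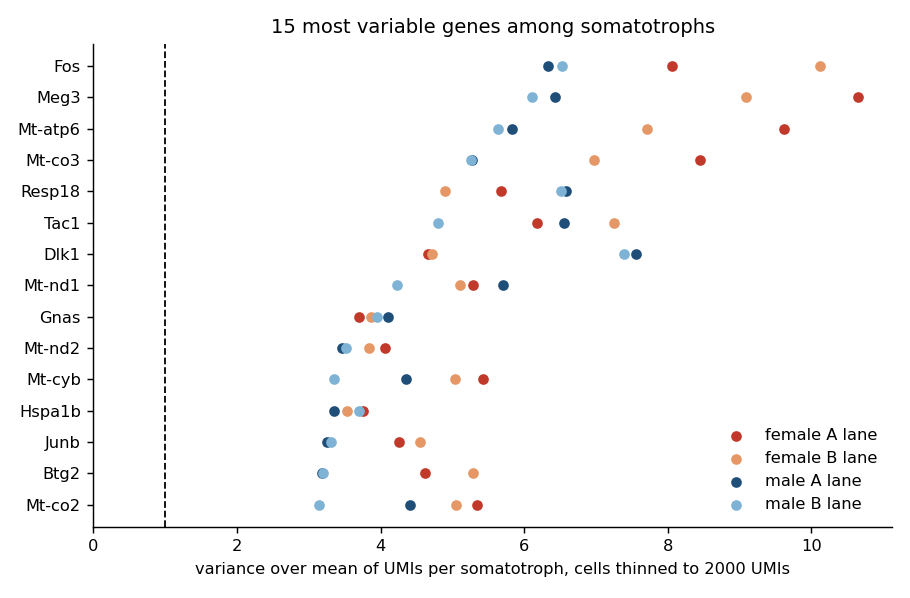
Ratio of variance to mean of UMIs per somatotroph (x axis) for the 15 most variable genes (y axis), with cells thinned to 2000 UMIs and 1 point per lane. The dashed line at 1 is the ratio of counting error alone, and every point lies above 3.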

How the data were processed

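The deposited table holds 86742346 UMI counts of 30058 genes in 7861 cells, made by the authors with Cell Ranger 2.1 (submitters' processing notes) on an NCBI rat annotation extended at 3′ ends, with lanes combined after equalizing mapped reads. Gene names and barcodes (other deposited text columns) were read as given, and a lane's sex was taken from its number of cells. *Eif2s3y* had 0 and 1 UMIs in the female and 2100 and 2038 in the male lanes. Members, lists and tests were chosen with earlier results of these data known.

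UMIs were summed per lane and group, leaving out 7 hormone and 4 globin genes, and tested with edgeR 4.0.16 (TMM factors, quasi-likelihood with robust dispersions, filterByExpr minimum count of 10, 2-sided, Benjamini-Hochberg over all genes tested). Calls needed an adjusted p below 0.001 and 2-fold. The steps were tested on simulated data. Levels are CPM without the 7 hormone and 4 globin genes. Intervals are exact (Clopper-Pearson, 95%), for counting error only.

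Named genes were, against each other group, the 15 higher (a UMI in 20% of somatotrophs or more) and the 6 lower (20 CPM or more in each other group) with the largest smallest fold, against lactotrophs 8 per direction (50 CPM or more in the higher group), and 10 per direction for sex (20 CPM) and *Gh1* terciles (50 CPM). Cells of interest for *Tac1*, *Vip*, *Calcb*, *S100g*, *LOC287167* and *Pttg1* were chosen after their values were seen. Doublet calls came from comparing each cell with simulated pairs (30% added, 10 repeats, limit of 0.01 on the adjusted p), marking 186 cells (2.37%), 61 of them somatotrophs, which were kept. A RefSeq table of assembly GRCr8, later than the authors' annotation, served for names only. Of 400 listed genes, 397 were in the table. Some genes are not reported here. Alternatives were DESeq2 1.42.0, library size alone, no low-count filter, hormone and globin genes kept, quality outliers and doublets left out, *Gh1* at 10% or more, thinned cells, other limits and each lane left out.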

Additional observations from a re-analysis of the deposited data

How the results depend on the processing

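Of the genes named by rule, none reversed under any alternative run. Between the sexes, no paired analysis was possible, because the lanes are technical replicates of separate pools and no female lane has a male partner. The columns of cells also carry no replicate numbers, so the lanes could not be matched to the numbered samples of each sex. Between cell groups and terciles lane was the block throughout. For sex, leaving out a lane leaves 1 lane, which is assumed to vary like the other sex. The cause of the moves below was not tested, except that a stricter or looser limit changes a count by construction. Values follow as higher then lower in somatotrophs, or male then female, or upper then lower tercile.

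Against each other group (106 and 52), DESeq2 gave 80 lower, 3-fold gave 69 higher, an adjusted p below 0.05 gave 168 and 135, and single lanes left out gave 64 to 75 and 22 to 27. Against lactotrophs (378 and 474), an adjusted p below 0.05 gave 800 and 915, and single lanes left out gave 218 to 264 and 295 to 357. For sex (152 and 162), DESeq2 gave 81 and 102, no low-count filter 239 male, thinned cells 92 and 64, no fold limit 440 and 627, 3-fold 57 and 100, and an adjusted p below 0.05 gave 345 and 327. Single lanes left out gave 153 to 204 and 168 to 199. For *Gh1* terciles (1 and 41), no low-count filter gave 6 and 199, quality outliers and doublets left out 15 lower, *Gh1* at 10% or more 0 and 12, thinned cells 0 and 7, no fold limit 17 upper, 3-fold 0 upper, an adjusted p below 0.05 gave 5 and 106, and doublets alone left out gave 10 lower. Single lanes left out gave 0 to 1 and 34 to 63. At 10% *Gh1* or more, somatotrophs were 24.1% of cells. Of the 15 most variable genes, 14 were found at 1000 UMIs too.

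Depth limits sparse genes: *Ghsr* did not pass the filter across groups, and the call for *Vip* rests on few cells. Without replicate animals no difference between the sexes can be separated from age or pool.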
